A study of Homo sapiens with 16 samples.

Results

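The genes described here are 49 genes of macroautophagy, the pathway in which a cell encloses part of its own content in a double membrane and delivers it to the lysosome. They were taken as a list of symbols, from the receptors that bind cargo to the proteins of the lysosomal membrane, and were matched to the array through the RefSeq accession of each probe. Of the 49 genes, 48 had a probe and all 48 had at least 1 probe that could be tested, out of 16398 genes with a tested probe on the array. The 48 genes had 71 tested probes, 1 for each of 27 genes and several for each of 21. NBR1, a further cargo receptor, was without a matched probe and is not analysed here. The list was drawn up with earlier results of these arrays known.

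The data come from LP-1, a human multiple myeloma cell line, in 2 forms made by lentiviral transduction and sorting for eGFP. LP-1-cIAP2-eGFP cells carried a vector for cIAP2, an inhibitor of apoptosis protein with ubiquitin ligase activity, together with eGFP, and LP-1-eGFP control cells carried eGFP alone. They are called the cIAP2 line and the control line below. Cells of both lines were left untreated or were given 10 nM bortezomib, a proteasome inhibitor, and RNA was taken at 6 h and at 24 h, which makes 8 conditions with 2 biological replicates each. The 16 samples were hybridized to 1-colour Agilent arrays, and this number limits the precision. Each line is a single transduced population, so that a difference between the lines cannot be told apart from a difference between those 2 populations. BIRC3, the gene of cIAP2, has 1 probe, which gave a log2 signal of 11.92 to 12.13 on the 4 untreated LP-1-cIAP2-eGFP arrays and of 13.54 to 13.67 on the 4 untreated control arrays. According to the study's methods this probe lies outside the delivered sequence and detects the endogenous transcript alone, so that it checks no label. The plasma cell genes SDC1, TNFRSF17, CD38, XBP1, IRF4, MZB1 and JCHAIN were well above background on all 16 arrays and PRDM1 on 15, whereas the B cell genes MS4A1 and PAX5 were above it on 0. Of markers of other cells, CD79A (B cell) and KRT8 and KRT18 (epithelial) were above background on all 16 arrays, CD2 on 15, CD14 on 13, CD3D on 12, CD3E on 10, CD3G on 6, EPCAM on 2 and CD22 on 1, and CSF1R, FCGR3A and CDH1 on 0.

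Values below are quantile-normalized log2 signals, given as replicate 1 and replicate 2, and differences of log2 signal (log2 fold changes, where 1 is a 2-fold change). A gene is represented by its tested probe with the highest mean signal. Differences were tested in limma with a model of all 8 conditions, and a gene was called when its p-value, adjusted by the Benjamini-Hochberg method over all tested probes, was under 0.05. Since signals of different probes are not on a shared scale, levels are compared between arrays and never between genes. One array stood apart before any result was drawn: replicate 1 of bortezomib-treated cIAP2 cells at 24 h had a log2 median signal of 3.18 before normalization, with 35.5% of its gene spots well above background, and the SD over probes of its difference from replicate 2 was 1.48, where the other 7 conditions gave 0.495 to 0.773. The counts at 24 h in the cIAP2 line are therefore also given without it. Replicate 2 then stands alone in that condition, so that its spread is taken from the other conditions.

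Autophagy begins when the ULK1 kinase complex and the class III PI3-kinase complex act on a membrane source, after which lipids are brought in by ATG2 proteins and membrane proteins such as ATG9A. Proteins of the LC3 and GABARAP family are attached to the growing membrane by 2 linked conjugation systems. Receptors such as p62, the product of SQSTM1, hold ubiquitinated cargo at one end and LC3 or GABARAP at the other, and the closed vesicle finally fuses with a lysosome, whose genes are under the control of TFEB and its relatives. In cells whose proteasome is inhibited, ubiquitinated proteins build up, and autophagy is known as the other large route by which they are removed. Plasma cells and myeloma cells make much secreted protein and are known for their use of both routes.

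The sequences before the transcription start of 5 members are shown because these genes span the range of responses, from the largest rise (GABARAPL1) to a fall (GABARAP) and to no call at all (LAMP1). All 5 are the 250 bases before the gene's start in RefSeq, assembly GRCh38.p14, read 5′ to 3′ on the gene's own strand. GABARAPL1 is at chr12:10212627-10212876 (plus strand), GABARAP at chr17:7242450-7242699 (minus), MAP1LC3B at chr16:87392086-87392335 (plus), CALCOCO2 at chr17:48830785-48831034 (plus) and LAMP1 at chr13:113296989-113297238 (plus). Capitals mark matches, on either strand, to 5 short motifs of factors known in stress responses. These were CACGTG (the E-box within the site bound by TFEB), TGACGTCA (the cAMP response element bound by CREB and ATF proteins), TGACNNNGC (the core of the antioxidant response element), GAANNTTC (the core of the heat shock element) and TGATGNAA (the core of the ATF4-CHOP element).
GABARAPL1: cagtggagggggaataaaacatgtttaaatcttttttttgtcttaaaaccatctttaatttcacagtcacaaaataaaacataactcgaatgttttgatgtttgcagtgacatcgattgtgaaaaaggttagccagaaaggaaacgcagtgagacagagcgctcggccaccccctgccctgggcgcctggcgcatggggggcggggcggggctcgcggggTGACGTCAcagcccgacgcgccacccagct
GABARAP: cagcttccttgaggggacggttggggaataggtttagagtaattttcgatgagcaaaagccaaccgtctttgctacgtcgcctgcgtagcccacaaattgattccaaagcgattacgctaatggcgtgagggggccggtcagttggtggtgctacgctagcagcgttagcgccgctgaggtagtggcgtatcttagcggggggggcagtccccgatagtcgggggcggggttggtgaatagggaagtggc
MAP1LC3B: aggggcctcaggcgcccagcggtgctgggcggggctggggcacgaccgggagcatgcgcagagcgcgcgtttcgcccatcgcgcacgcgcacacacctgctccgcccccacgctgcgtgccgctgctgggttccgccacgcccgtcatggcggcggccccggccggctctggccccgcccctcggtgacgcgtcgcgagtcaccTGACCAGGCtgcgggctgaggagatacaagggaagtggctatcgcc
CALCOCO2: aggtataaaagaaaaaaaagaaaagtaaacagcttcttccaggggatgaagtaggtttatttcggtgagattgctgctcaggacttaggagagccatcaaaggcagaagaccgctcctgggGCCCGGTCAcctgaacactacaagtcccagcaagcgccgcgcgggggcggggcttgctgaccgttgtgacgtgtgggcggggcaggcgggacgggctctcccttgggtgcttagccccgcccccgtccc
LAMP1: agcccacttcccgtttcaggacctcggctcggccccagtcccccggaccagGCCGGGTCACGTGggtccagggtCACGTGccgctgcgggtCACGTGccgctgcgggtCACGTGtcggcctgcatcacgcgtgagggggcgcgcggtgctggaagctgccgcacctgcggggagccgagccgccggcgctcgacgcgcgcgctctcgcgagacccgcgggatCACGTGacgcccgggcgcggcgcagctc

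GABARAPL1 held the full palindrome of the cAMP response element, beginning 30 bases before its start. In windows that also take in the 50 bases after the start, this motif was present in 1.85% of all 35116 promoters in the table and in those of 1 of the 41 members with a window. MAP1LC3B held a match to the antioxidant response element core 46 bases before its start, and CALCOCO2 one 129 bases before its own. That motif was found in 13.3% of all promoters and in those of 6 members. LAMP1 held 5 E-boxes in the 250 bases shown, the first of which overlaps a match to the antioxidant response element core, and 6 in its whole window. It was the 1 promoter among the 35116 with 5 or more of them, where 7.26% of all promoters and those of 5 members held at least 1. The GABARAP stretch held none of the 5 motifs. Members that rose at 24 h in both lines were found with and without a match in their whole windows. GABARAPL1, MAP1LC3B, CALCOCO2, TAX1BP1 and ATG101 held one. SQSTM1, ULK1, AMBRA1, ATG2A, ATG5, WIPI1, WIPI2, TFEB and VMP1 held none, so that the stretches shown do not stand for the rising members. The heat shock core was in 6.77% of all promoters and those of 2 members (GABARAPL2 and TAX1BP1), and the ATF4-CHOP core in 3.62% and those of 1 member (WDR45). A match describes the letters and does not show that a factor binds, and a window without one says nothing about the factor.

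These are bulk samples, in which fewer cells of a kind and less RNA per cell cannot be told apart. After 24 h of bortezomib, 19 of the 48 members rose in the control line and 1 fell, and in the cIAP2 line 19 rose and 3 fell. Of these, 16 rose in both lines, 1 fell in both (GABARAP) and 23 were called in neither. No share of all genes called in both lines or in neither is given beside these counts, nor beside those by class below. The members that rose were 39.6% of the 48 in each line, beside a background of 13.3% of all 16398 genes in the control line and 14.4% in the cIAP2 line. Falls were the larger part of the background, at 15.1% and 22.0%. The median log2 fold change over the 48 members was 0.38 in the control line and 0.42 in the cIAP2 line, where the medians over all genes were -0.03 and -0.16. Rises of more than 2-fold were seen for 10 members in the control line (all genes 6.70%) and for 11 in the cIAP2 line (all genes 7.65%). Leaving out the dim array leaves replicate 2 alone in its condition, and every count without it rests on that replicate. Without the dim array, 26 members rose in the cIAP2 line and 2 fell, and 20 of the 22 calls were kept, those of UVRAG and ATG16L1 being lost. The background was then 17.1% higher and 18.3% lower, and the median was 0.58 over the members and -0.01 over all genes. By class, and again without that array, 5 of 5 cargo receptors, 1 of 3 mitophagy and aggresome genes, 3 of 5 LC3 and GABARAP genes, 3 of 5 ULK complex genes, 2 of 6 PI3-kinase genes, 7 of 7 phagophore genes, 3 of 10 conjugation genes, 0 of 2 fusion genes and 2 of 5 lysosomal genes rose in the cIAP2 line. Without replicate 2 of untreated cIAP2 cells at 24 h, 14 were called in that line (29.2%, all genes 24.1%). When the arrays were scaled to their 75th percentile instead, the split was 11 higher and 1 lower in the control line and 12 higher and 4 lower in the cIAP2 line, where 9.50% and 11.6% of all genes were called higher and 15.2% and 19.7% lower. With array weights it was 20 higher and 1 lower in the control line and 7 higher and 0 lower in the cIAP2 line, beside 14.2% and 4.02% of all genes higher and 17.2% and 7.99% lower. These weights were equal for both replicates of a condition and lowered the dim array and its partner alike.

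At 6 h, 5 of the 48 members rose in the control line (SQSTM1, CALCOCO2, GABARAPL1, ULK1 and ATG5) and 2 in the cIAP2 line (SQSTM1 and GABARAPL1), and 0 fell in either line by limma, also at an unadjusted p under 0.05. Over all genes, 1.91% rose and 0.957% fell at 6 h in the control line, and 1.11% rose and 0.366% fell in the cIAP2 line. These calls rested on few arrays: leaving out single arrays gave between 1 and 8 calls at 6 h in the control line and between 1 and 5 in the cIAP2 line. GABARAPL1 was called in both lines whichever array was left out. The 6 h calls of CALCOCO2, ULK1 and ATG5 were each lost with scaling to the 75th percentile, without a filter and with the slide as a block. With array weights the counts were instead 13 at 6 h in the control line (all genes 21.6%) and 7 in the cIAP2 line (all genes 6.89%), which at 24 h gave 7 as well. The counts with an array left out were lowest without arrays of the line's own 6 h samples, and highest, at 8 and 5 (all genes 8.80% and 5.34%), without either replicate of bortezomib-treated cIAP2 cells at 24 h.

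**Figure D1:**
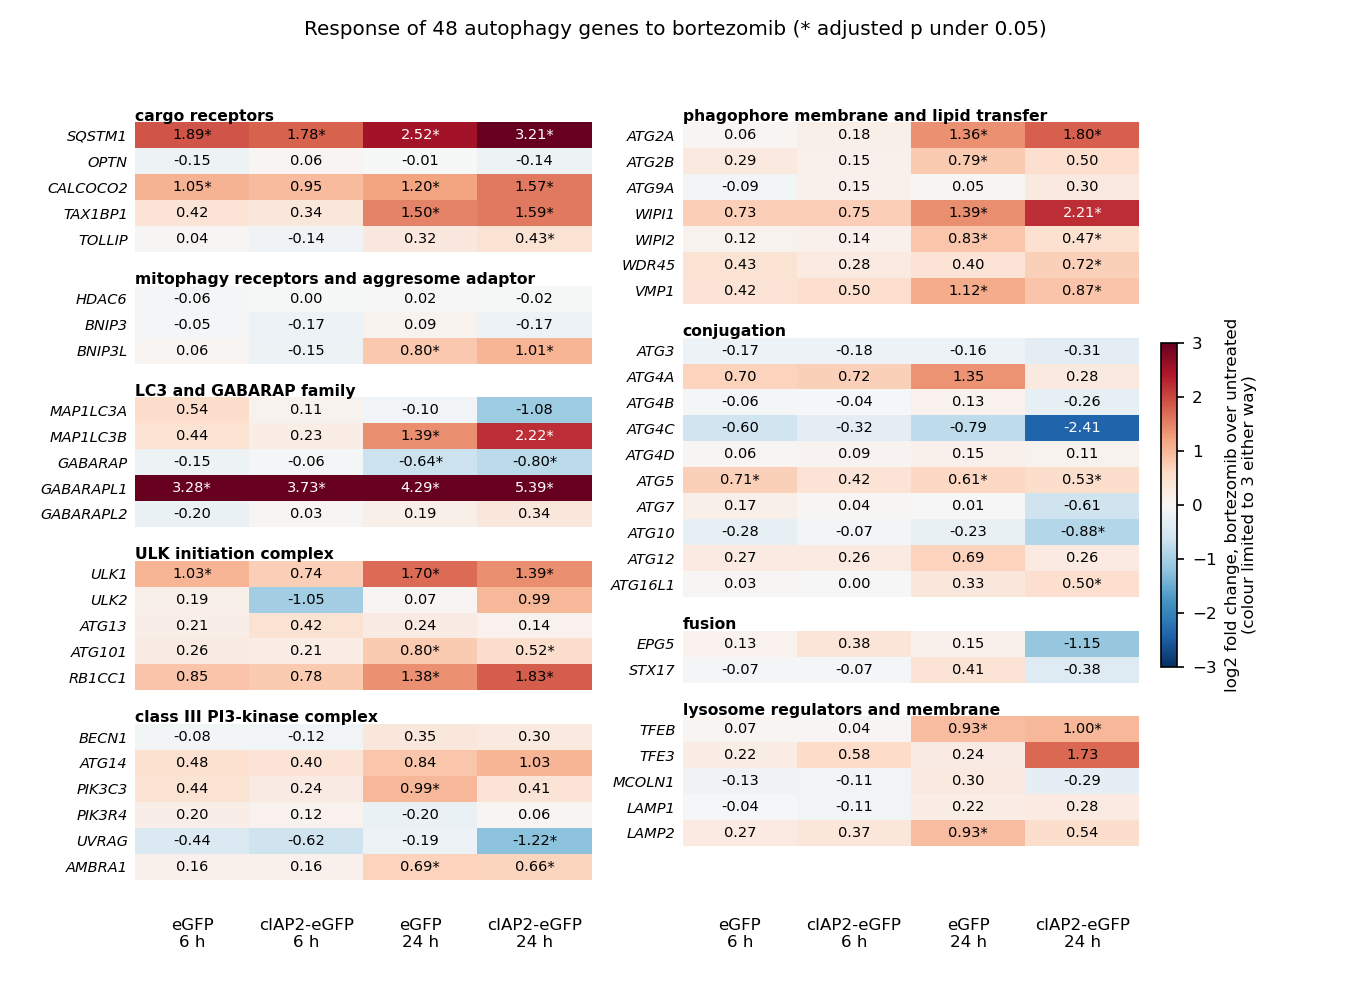
Log2 fold changes of the 48 measured autophagy genes with bortezomib against untreated cells of the same line and time, in rows by class and in columns by line and time, with an asterisk where the adjusted p was under 0.05. Colour runs from blue (lower) to red (higher) and is limited to 3 either way; GABARAPL1 and SQSTM1 are red in all 4 columns, and in the conjugation class asterisks stand at ATG5, ATG16L1 and ATG10 alone, the dark cell of ATG4C (-2.41, or -0.67 without the dim array) being without one.

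Among the cargo receptors, 3 of the 5 measured rose at 24 h in both lines. SQSTM1, whose product p62 gathers ubiquitinated proteins and carries them to the forming autophagosome, had a log2 signal of 14.28 and 13.9985 in untreated control cells at 6 h and of 16.04 and 16.02 with bortezomib. At 24 h its signal in the control line was 13.95 and 13.46 without and 16.26 and 16.20 with the drug. In the cIAP2 line it was 13.88 and 13.61 untreated and 15.45 and 15.60 treated at 6 h, and 13.61 and 13.04 untreated and 16.51 and 16.56 treated at 24 h. All 8 bortezomib arrays thus lay above all 8 untreated arrays, with no overlap. The log2 fold change was 1.89 at 6 h (SE 0.224, adjusted p = 0.00451) and 2.52 at 24 h (SE 0.224, adjusted p = 6.79e-05) in the control line. In the cIAP2 line it was 1.78 at 6 h (adjusted p = 0.00691) and 3.21 at 24 h (adjusted p = 1.43e-05), the latter a 9.28-fold rise. The 24 h responses were 2.50 and 2.93 when arrays of the same slide alone were compared. In each line the call at 6 h was lost without either of its bortezomib arrays or without replicate 2 of its untreated cells at that time, and the adjusted p was then at most 0.0642.

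TAX1BP1 and CALCOCO2 encode related receptors that also bind ubiquitin-marked cargo, the latter being known as NDP52. TAX1BP1 lay between 13.68 and 14.07 on the 8 untreated arrays. With bortezomib it was 14.30 and 14.25 in the control line and 14.21 and 14.11 in the cIAP2 line at 6 h, and 15.62 and 15.26 in the control line and 15.34 and 15.34 in the cIAP2 line at 24 h. It rose by 1.50 (SE 0.159, adjusted p = 1.78e-04) in control and by 1.59 in cIAP2 cells (SE 0.159, adjusted p = 9.80e-05) at 24 h, while the differences at 6 h, 0.42 and 0.34, were not called. No array of bortezomib at 24 h overlapped an untreated one. With normexp the value in the cIAP2 line was 0.88 and was not called (adjusted p = 0.0903). CALCOCO2 at 6 h was 9.14 and 9.43 without and 10.28 and 10.38 with the drug in the control line, and 8.46 and 8.79 without and 9.46 and 9.68 with it in the cIAP2 line. At 24 h it was 9.79 and 9.33 untreated against 10.76 and 10.77 treated in the control line, and 8.58 and 8.82 against 10.11 and 10.44 in the cIAP2 line. Within each line the treated arrays lay above the untreated ones at both times. CALCOCO2 rose by 1.20 in the control line (adjusted p = 0.00281) and 1.57 in the cIAP2 line (adjusted p = 4.91e-04) at 24 h, and was already higher by 1.05 at 6 h in the control line (adjusted p = 0.0385). Its 24 h call in the cIAP2 line was lost under some alternative, with values of 1.41 to 1.74 over all alternatives. TOLLIP, an adaptor of endosomes and autophagosomes, was called only in the cIAP2 line, at 0.43 against 0.32 in the control line, and the difference of these responses was 0.11 with a 95% interval from -0.28 to 0.50. Its second probe was at 0.13 in the control line and at -1.35 in the cIAP2 line (-0.62 without the dim array), not called in either. OPTN, the gene of optineurin, was called in neither line, at -0.01 and -0.14, but without the dim array its value in the cIAP2 line was 0.72 (adjusted p = 0.0460).

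Of the mitophagy receptors, which tie damaged or surplus mitochondria to LC3 and GABARAP proteins, BNIP3L rose and BNIP3 was not called. BNIP3L was 12.42 and 12.11 in untreated and 13.31 and 12.82 in treated control cells at 24 h, and 11.78 and 11.61 against 12.64 and 12.77 in the cIAP2 line. At 6 h it was 12.17 and 11.96 without and 12.24 and 12.01 with the drug in the control line, and 11.90 and 11.51 without and 11.63 and 11.47 with it in the cIAP2 line, with values that overlapped. The rises at 24 h were 0.80 (SE 0.216, adjusted p = 0.0259) and 1.01 (SE 0.216, adjusted p = 0.00667), and its second probe rose by 1.27 and 1.35. The call on the brightest probe was lost in the control line under 5 alternatives and without its bortezomib replicate 1 or its untreated replicate 2 at 24 h (adjusted p up to 0.209). In the cIAP2 line it was lost with normexp, where the value was 0.38 (adjusted p = 0.474), with array weights, and without untreated replicate 2 at 24 h (adjusted p = 0.0505). BNIP3 differed by 0.09 and -0.17 in the same comparisons. HDAC6, a deacetylase that brings ubiquitinated proteins to the aggresome, differed by 0.02 and -0.02 on its brightest probe, while its second probe was called lower in the control line at -1.36 (adjusted p = 0.00268).

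The LC3 and GABARAP family went apart under the drug. GABARAPL1, a GABARAP relative that is attached to autophagosome membranes, had the largest rise of all members in every comparison of bortezomib with untreated cells. Its log2 signal in the control line was 10.23 and 9.88 untreated against 13.38 and 13.30 treated at 6 h, and 10.04 and 9.87 against 14.23 and 14.27 at 24 h. In the cIAP2 line it was 8.99 and 9.07 against 12.74 and 12.78 at 6 h, and 9.18 and 9.36 against 14.86 and 14.47 at 24 h. The untreated and treated arrays stood more than 2 log2 units apart at every time. The rises were 3.28 at 6 h and 4.29 at 24 h in the control line (SE 0.175 each, adjusted p = 3.84e-05 and 1.66e-06). In the cIAP2 line they were 3.73 and 5.39 (adjusted p = 2.33e-05 and 4.16e-07), which at 24 h is a 42.0-fold change, or 19.6-fold in the control line. By size of rise at 24 h the gene had rank 24 among all 16398 genes in the control line and rank 10 in the cIAP2 line. The second GABARAPL1 probe rose by 4.37 and 5.54, and without the dim array the rise in the cIAP2 line was 5.19. GABARAPL1 has a near-identical pseudogene, GABARAPL3, and whether the probes also bind its transcript was not tested.

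MAP1LC3B, the LC3 protein most used as a marker of autophagosomes, rose at 24 h and was not called at 6 h. Its signal was 12.36 and 12.68 in untreated control cells at 24 h and 13.99 and 13.82 with bortezomib, and in the cIAP2 line 12.26 and 12.33 against 14.56 and 14.46. The log2 fold changes were 1.39 (SE 0.154, adjusted p = 2.26e-04) and 2.22 (SE 0.154, adjusted p = 1.42e-05), with 1.55 and 2.20 on the second probe. At 6 h the signal was 12.51 and 12.66 without and 13.03 and 13.02 with the drug in the control line, and 12.51 and 12.35 without and 12.57 and 12.76 with it in the cIAP2 line, and the log2 fold changes were 0.44 and 0.23. The treated MAP1LC3B arrays lay above the untreated ones of their line at both times. MAP1LC3B2 is a near-identical copy of this gene, and whether these probes also bind its transcript was not tested. GABARAP, the family's namesake, went the other way: it lay between 14.32 and 14.58 on the untreated arrays and at 13.96, 13.87, 13.66 and 13.51 on the 4 arrays of bortezomib at 24 h, with no overlap between these. It fell by 0.64 (adjusted p = 0.00515) in control and by 0.80 in cIAP2 cells (SE 0.125, adjusted p = 0.00118). GABARAP was lower in both lines under the other scalings and background correction as well, by limma at -1.06 to -0.51 in the cIAP2 line, where its call was lost with normexp (adjusted p = 0.105). GABARAPL2, a relative also called GATE-16, was at 0.19 and 0.34, not called in either line, although without the dim array it was called in the cIAP2 line at 0.47 (adjusted p = 0.0207), and MAP1LC3A was dim, well above background on 11 of the 16 arrays and not called, with 1 bortezomib array of the control line at 24 h left out for an outlier spot.

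**Figure D2:**
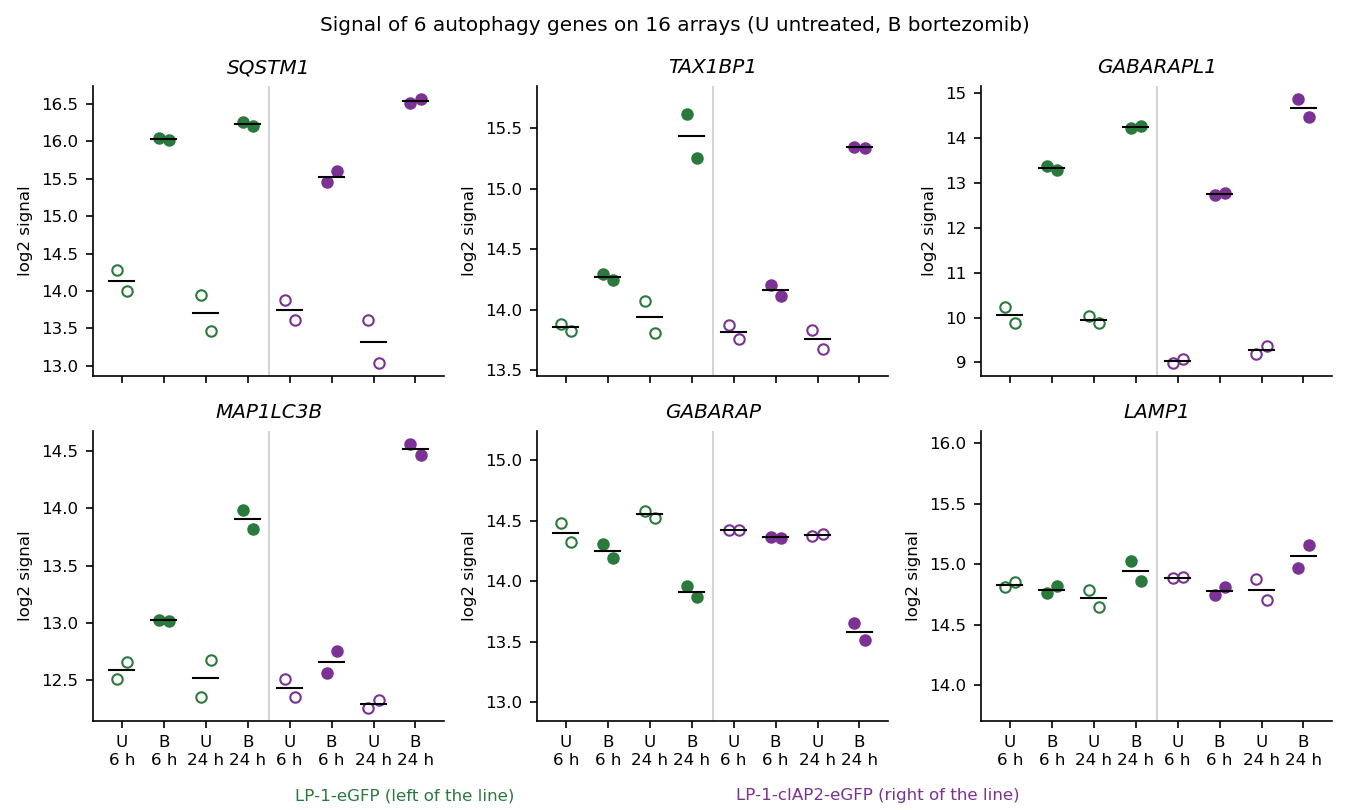
Quantile-normalized log2 signal of 6 members on each of the 16 arrays, open circles for untreated and filled circles for bortezomib, with a bar at the mean of the 2 replicates; LP-1-eGFP is on the left of each panel and LP-1-cIAP2-eGFP on the right. SQSTM1 and GABARAPL1 are high with bortezomib at both times, TAX1BP1 and MAP1LC3B mainly at 24 h, GABARAP is low at 24 h, and LAMP1 stays between 14.65 and 15.16.

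In the ULK complex, which starts autophagosome formation, ULK1, RB1CC1 and ATG101 rose at 24 h in both lines. ULK1, the kinase, was 9.69 and 9.47 in untreated and 11.15 and 11.42 in treated control cells at 24 h, and 9.73 and 9.49 against 10.79 and 11.22 in the cIAP2 line. It rose by 1.70 (SE 0.205, adjusted p = 3.46e-04) and by 1.39 (SE 0.205, adjusted p = 8.25e-04), and by 1.03 at 6 h in the control line (adjusted p = 0.0375). The 24 h call of ULK1 in the cIAP2 line was lost under some alternative that kept all arrays (limma, adjusted p up to 0.0679). At 6 h ULK1 was 9.56 and 9.55 without and 10.45 and 10.71 with the drug in the control line, and 9.34 and 9.52 without and 10.00 and 10.34 with it in the cIAP2 line. The treated ULK1 arrays lay above the untreated ones of their line and time throughout. RB1CC1 was 11.82 and 11.72 without and 12.71 and 12.53 with the drug in the control line, and 11.41 and 11.31 without and 12.17 and 12.11 with it in the cIAP2 line at 6 h. It was 11.97 and 11.67 untreated against 13.47 and 12.94 treated in the control line, and 11.44 and 11.20 against 13.38 and 12.91 in the cIAP2 line at 24 h, again with no overlap within a line and time. RB1CC1, also called FIP200, is the scaffold of the complex and rose by 1.38 in the control line (adjusted p = 0.00171) and 1.83 in the cIAP2 line (adjusted p = 2.76e-04). ATG101, which stabilizes ATG13 in the complex, rose by 0.80 and 0.52. ATG13 itself was at 0.24 and 0.14 and was not called, nor was ULK2, which was well above background on 12 arrays.

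The class III PI3-kinase complex makes the lipid PI3P on the forming membrane, and 1 of its 6 members, the regulator AMBRA1, rose in both lines, by 0.69 (adjusted p = 0.00365) and 0.66 (adjusted p = 0.00374). PIK3C3, the catalytic subunit VPS34, rose by 0.99 in the control line and was at 0.41 in the cIAP2 line, not called there. Its value there without the dim array was 0.94 and was called (adjusted p = 0.00337). BECN1 and PIK3R4, further core subunits, and ATG14, which directs the complex to autophagy, were called in neither line, with BECN1 at 0.35 and 0.30. UVRAG, which takes the place of ATG14 in a second form of the complex, was 8.74 and 9.02 in untreated cIAP2 cells at 24 h and 7.50 and 7.82 with bortezomib, a fall of 1.22 (SE 0.285, adjusted p = 0.0104). In the control line at 24 h it was 7.51 and 8.37 untreated and 7.44 and 8.06 treated, which overlapped, with a difference of -0.19. The UVRAG values at 6 h were 8.18 and 8.31 without and 7.77 and 7.84 with the drug in the control line, and 9.20 and 9.19 without and 8.54 and 8.62 with it in the cIAP2 line. At 6 h the arrays did not overlap within a line, but the differences of -0.44 and -0.62 were not called. Without the dim array the UVRAG value in the cIAP2 line was -1.06 with an adjusted p of 0.0520, and the call was also lost without untreated cIAP2 replicate 2 at 24 h (-1.08, adjusted p = 0.0740).

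The phagophore and lipid transfer genes had 5 of 7 members called higher in each line, 4 of them in both, and the values of all 7 were above 0. WIPI1, which binds PI3P on the growing membrane, was 11.56 and 11.32 in untreated and 12.82 and 12.84 in treated control cells at 24 h, and 11.00 and 11.06 against 12.97 and 13.51 in the cIAP2 line. It rose by 1.39 (SE 0.186, adjusted p = 6.31e-04) and by 2.21 (SE 0.186, adjusted p = 4.01e-05), and was at 0.73 and 0.75 at 6 h, not called. With normexp the 24 h call in the control line was lost (adjusted p = 0.0575). Its 6 h signals were 11.36 and 11.50 without and 12.14 and 12.17 with the drug in the control line, and 11.22 and 11.07 without and 11.80 and 11.98 with it in the cIAP2 line, and in both lines no treated array overlapped an untreated one. WIPI2, its relative that recruits ATG16L1, rose by 0.83 and 0.47, and its second probe was at 0.25 and -0.14, not called. ATG2A, a lipid transfer protein, rose by 1.36 (SE 0.182, adjusted p = 6.41e-04) and 1.80 (SE 0.182, adjusted p = 1.05e-04), from 12.51, 12.36, 12.46 and 12.33 on the untreated arrays at 24 h to 13.71, 13.88, 14.41 and 13.98 on the treated ones. Over the alternatives its value in the cIAP2 line went down to 0.87, and its call there was lost under some (limma, adjusted p up to 0.0945). At 6 h ATG2A was 12.53 and 12.45 without and 12.49 and 12.59 with the drug in the control line, and 12.28 and 12.41 without and 12.36 and 12.71 with it in the cIAP2 line, with overlap in both lines. The second ATG2A probe was at 1.43 and -0.06 and was called in neither line, but without the dim array it was called in the cIAP2 line at 1.54 (adjusted p = 1.70e-04). ATG2B rose in the control line at 0.79 and was at 0.50 in the cIAP2 line, WDR45 rose in the cIAP2 line at 0.72 and was at 0.40 in the control line, and VMP1, a membrane protein needed for the phagophore to leave the endoplasmic reticulum, rose in both by 1.12 and 0.87. The WDR45 call was lost with normexp at 0.08 (adjusted p = 0.913), with scaling to the 75th percentile, with array weights, and without either untreated cIAP2 array at 24 h. The VMP1 call in the cIAP2 line was lost with scaling to the 75th percentile (0.63, adjusted p = 0.121) and with array weights. VMP1 was 11.95 and 12.24 untreated against 13.22 and 13.22 treated in the control line, and 12.03 and 12.15 against 12.75 and 13.15 in the cIAP2 line at 24 h. At 6 h it was 12.06 and 12.32 without and 12.56 and 12.65 with the drug in the control line, and 11.88 and 11.99 without and 12.36 and 12.52 with it in the cIAP2 line, where the differences, 0.42 and 0.50, were not called although the arrays did not overlap within a line. ATG9A, the multispanning membrane protein of the pathway, was not called with the drug, at 0.05 and 0.30, but without the dim array it was called in the cIAP2 line at 0.61 (adjusted p = 0.00952). ATG2B was likewise called there without that array, at 0.74 (adjusted p = 0.0165).

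Of the conjugation genes, the largest class with 10 members, 1 rose in the control line and 2 in the cIAP2 line (3 without the dim array), with a median of 0.14 and -0.08. These shares of 10.0% and 20.0% are near the background of 13.3% and 14.4%. ATG5, which is joined to ATG12, rose by 0.61 (SE 0.120, adjusted p = 0.00522) and 0.53 (adjusted p = 0.00875) on its brightest probe, and its second probe was at -0.52 and -0.85, or 0.26 in the cIAP2 line without the dim array, not called. On the brightest probe ATG5 was 10.83 and 10.96 untreated against 11.47 and 11.55 treated in the control line, and 10.96 and 11.03 against 11.50 and 11.55 in the cIAP2 line at 24 h. It was 10.92 and 10.89 without and 11.63 and 11.60 with the drug in the control line, and 10.95 and 10.98 without and 11.32 and 11.45 with it in the cIAP2 line at 6 h, with no overlap at either time. When the probes of a gene were averaged, the ATG5 value was 0.05 in the control line, not called (adjusted p = 0.953), and -0.16 in the cIAP2 line, and with scaling to the 75th percentile ATG5 was called in neither line at 24 h (0.47 and 0.34). ATG16L1, which completes the ATG12-ATG5 complex, was at 0.33 in the control line, where 1 of the 2 bortezomib arrays gave no usable spot, and rose in the cIAP2 line by 0.50 (adjusted p = 0.0350), a call that was lost without the dim array, and ATG10, the E2-like enzyme for ATG12, fell there by 0.88. ATG3, the E2-like enzyme that acts on LC3, was at -0.16 and -0.31, ATG7, the E1-like enzyme of both systems, at 0.01 and -0.61, and ATG12 at 0.69 and 0.26. The second ATG7 probe was at -0.69 in the control line and was called lower in the cIAP2 line at -1.57 (adjusted p = 0.0167), or at -0.76 and still called without the dim array. The cIAP2 values without the dim array were -0.15 for ATG7 and 0.71 for ATG12, the latter called (adjusted p = 0.00399). The protease genes ATG4A, ATG4B, ATG4C and ATG4D were not called on their brightest probes in either line. Of 2 further ATG4C probes, between -2.19 and -1.13 in the cIAP2 line, 1 was called there. Without the dim array these lay between -1.80 and -0.34. ATG4C had a value of -2.41 in the cIAP2 line at an adjusted p of 0.0557, but -0.67 (adjusted p = 0.153) without the dim array. ATG4A, at 1.35 in the control line and 0.28 in the cIAP2 line, was called higher there at 1.26 (adjusted p = 0.00112) without that array.

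At the fusion step, neither STX17, the SNARE protein of the closed autophagosome, nor EPG5, a tether between it and the lysosome, was called. TFEB, the transcription factor of lysosomal and autophagy genes, rose by 0.93 (SE 0.164, adjusted p = 0.00287) in control and by 1.00 in cIAP2 cells (SE 0.164, adjusted p = 0.00154). The call was lost in the control line with the probes of a gene averaged (0.66, adjusted p = 0.184) and in the cIAP2 line with array weights (adjusted p = 0.0744). Its signal was 11.79 and 11.67 untreated against 12.46 and 12.86 treated at 24 h in the control line, and 11.69 and 11.53 against 12.49 and 12.73 in the cIAP2 line. At 6 h it was 11.86 and 11.82 without and 11.92 and 11.90 with the drug in the control line, and 11.30 and 11.29 without and 11.26 and 11.42 with it in the cIAP2 line, with log2 fold changes of 0.07 and 0.04. The groups overlapped at 6 h in the cIAP2 line and were apart at 24 h in both lines. The second TFEB probe was called in the cIAP2 line alone, at 1.91 (0.61 without the dim array, still called) against 0.40. TFE3, a relative of TFEB, and MCOLN1, a lysosomal calcium channel that TFEB controls, were not called on their brightest probes, TFE3 with a value of 1.73 in the cIAP2 line that was 0.21 without the dim array. The second TFE3 probe was at 0.40 in the control line and was called higher in the cIAP2 line at 0.79 (0.65 without the dim array). LAMP1, a major protein of the lysosomal membrane and the gene with the E-boxes shown above, was at 0.22 with a 95% interval from -0.08 to 0.53 in the control line and at 0.28 with an interval from -0.03 to 0.58 in the cIAP2 line. LAMP2 has probes for 3 transcripts, and the brightest rose in the control line by 0.93 (adjusted p = 0.00670) and was at 0.54 in the cIAP2 line (0.83 and called without the dim array, adjusted p = 0.00342), while the others, between -0.21 and 0.48, were not called.

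Several probes of a gene did not always give the same call. Of the 21 members with more than 1 tested probe, at least 1 further probe differed in its call from the brightest at 24 h for 6 members in the control line and for 9 in the cIAP2 line. The count in the cIAP2 line includes the dim array, and no share over all genes is given beside either count. GABARAPL1, MAP1LC3B and BNIP3L had all their probes called higher in both lines.

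The time course was compared by testing the 24 h response against the 6 h response, averaged over both lines. The test passed for 13 members, 12 with a larger response at 24 h and GABARAP with a lower one, which is 27.1% of the 48 beside 20.6% of all genes. With scaling to the 75th percentile the share of members was 12.5%, below the 17.4% of all genes, and with normexp it was 18.8% (all genes 17.6%). MAP1LC3B was higher at 24 h than at 6 h by 1.47 (adjusted p = 3.89e-04), ATG2A by 1.46 (adjusted p = 8.59e-04), GABARAPL1 by 1.34 (adjusted p = 0.00109) and TAX1BP1 by 1.16 (adjusted p = 0.00138). SQSTM1 was at 1.89 at 6 h and 2.52 at 24 h in the control line, and at 1.78 and 3.21 in the cIAP2 line. Averaged over both lines it gained 1.04 (limma, adjusted p = 0.0128). MAP1LC3B and GABARAPL1 passed under all 25 alternatives, single arrays left out included. ATG2A (averaged probes, adjusted p = 0.106), TAX1BP1 (normexp, adjusted p = 0.198), SQSTM1 (array weights, adjusted p = 0.0616) and GABARAP (normexp, adjusted p = 0.180) passed under 24 of them. No member differed between 24 h and 6 h in untreated cells by limma, where 0.0122% of all genes did. At an unadjusted p under 0.05 in limma there were 2, beside 1631 of 33716 tested probes. The count of members whose responses differed between the times was 24 without the dim array (all genes 30.3%) and 21 without the other replicate of its condition (all genes 41.8%).

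**Figure D3:**
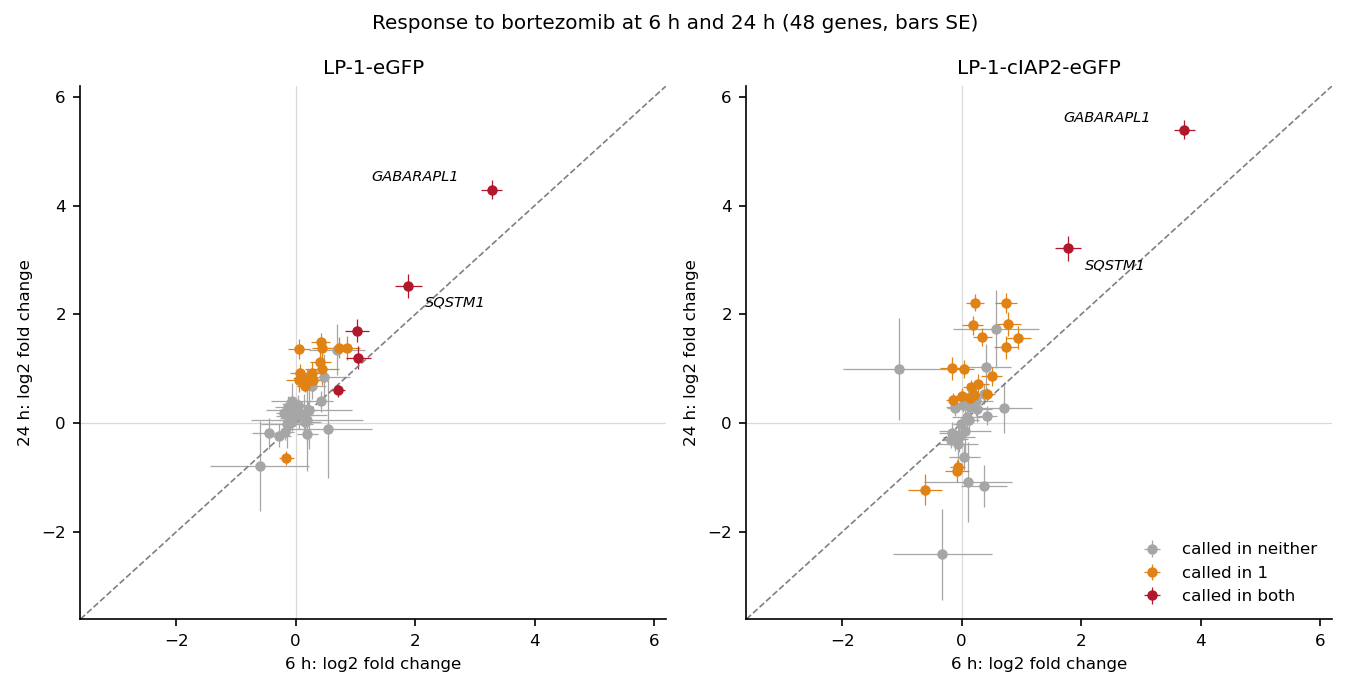
Log2 fold change with bortezomib at 24 h (vertical) against that at 6 h (horizontal) for the 48 members in each line, with standard errors as bars and the line of equal change dashed. Red points were called at both times, orange points at 1 of them and grey points at neither; GABARAPL1 (3.28 and 4.29, 3.73 and 5.39) and SQSTM1 (1.89 and 2.52, 1.78 and 3.21) lie above the line and far from 0 on both axes.

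The lines were then compared in their responses. No member passed the test of the difference at 6 h or at 24 h by limma, with 0 and 6 members at an unadjusted p under 0.05. Over all genes, 0% passed the adjusted test at 6 h and 0.104% at 24 h. The unadjusted limit was met by 691 of 33716 tested probes at 6 h and by 2731 of 33730 at 24 h. GABARAPL1 rose by 1.10 more in the cIAP2 line than in the control line at 24 h, with a 95% interval from 0.54 to 1.65 (adjusted p = 0.274). The difference was 0.83 for MAP1LC3B (interval 0.34 to 1.32, adjusted p = 0.384), 0.82 for WIPI1 (interval 0.23 to 1.41, adjusted p = 0.497) and 0.69 for SQSTM1 (interval -0.02 to 1.40, adjusted p = 0.624). For TAX1BP1 it was 0.09 (interval -0.42 to 0.59) and for TFEB 0.07 (interval -0.45 to 0.59). These counts rest on the replicates of bortezomib-treated cIAP2 cells at 24 h: without replicate 1, the dim array, 0 members passed (all genes 0.343%), and without replicate 2, which leaves the dim array alone, 15 did (31.2%, all genes 27.9%).

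**Figure D4:**
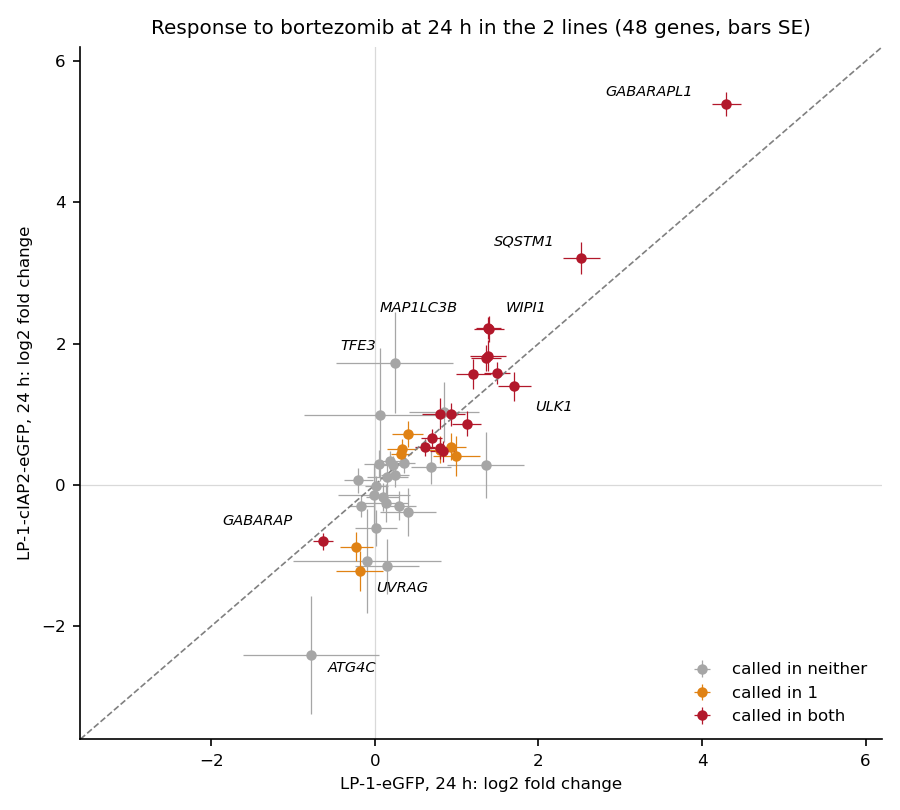
Log2 fold change with bortezomib at 24 h in LP-1-cIAP2-eGFP (vertical) against LP-1-eGFP (horizontal) for the 48 members, with standard errors as bars and the line of equal change dashed. GABARAPL1, SQSTM1, MAP1LC3B and WIPI1 lie above it by 0.69 to 1.10, differences that did not pass the test after adjustment.

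Between the untreated lines, 5 members differed, or 10.4% of the 48 beside 10.8% of all genes. CALCOCO2, GABARAPL1, ATG9A and WDR45 were lower in the cIAP2 line and UVRAG was higher. The GABARAPL1 call was kept under every alternative, single arrays left out included. Those of CALCOCO2, ATG9A, WDR45 and UVRAG in untreated cells were each lost under some alternative. In the 3-way analysis, which averages the difference between the lines over treatment and time, 11 members were called (22.9%, all genes 21.8%), 9 lower and 2 higher in the cIAP2 line. With normexp background correction the splits were 3 lower and 2 higher in untreated cells, and 5 and 4 in the 3-way analysis, where 9.96% and 20.0% of all genes were called. The study's own limit, an adjusted p under 0.001 with more than 2-fold between the untreated lines, was met by 0 members in limma and in an ordinary 3-way ANOVA (all genes 3.39%), and no called member differed 2-fold between the untreated lines. At an unadjusted p under 0.05 the 3-way analysis passed 16 members, beside 9380 of 33715 tested probes. Without the dim array 9 members differed between the untreated lines (18.8%, all genes 20.2%) and 17 in the 3-way analysis (35.4%, all genes 30.9%). Without the other replicate of its condition these were again 9 and 20.2%, and 24 (50.0%, all genes 41.9%). The lowest counts with a single array left out were 2 and 7.

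ATG9A had the smallest p among the members in the 3-way analysis. Its log2 signal was 11.14, 11.07, 10.89 and 11.03 on the untreated control arrays and 11.08, 10.95, 10.97 and 11.05 with bortezomib. In the cIAP2 line it was 10.25, 10.06, 10.15 and 10.19 untreated and 10.30, 10.30, 10.17 and 10.78 treated, each series giving the 2 replicates at 6 h and then those at 24 h. All 8 arrays of the cIAP2 line lay below all 8 of the control line. Averaged over treatment and time the difference was -0.75 (SE 0.095, adjusted p = 5.02e-04), or 1.68-fold lower, and within slides it was between -1.08 and -0.50. CALCOCO2 was lower by 0.69 in the cIAP2 line (SE 0.105, adjusted p = 0.00154), with untreated signals of 8.46 to 8.82 against 9.14 to 9.79 in the control line. WDR45 at 6 h was 11.62 and 11.46 without and 12.0013 and 11.94 with the drug in the control line, and 11.06 and 11.18 without and 11.30 and 11.50 with it in the cIAP2 line. At 24 h it was 12.09 and 11.75 untreated against 12.27 and 12.38 treated in the control line, and 11.08 and 11.13 against 11.58 and 12.08 in the cIAP2 line. At each time and treatment its cIAP2 arrays lay below its control arrays. WDR45, a PI3P-binding relative of the WIPI proteins, differed by -0.57 (SE 0.095, adjusted p = 0.00248). UVRAG was higher by 0.65 (adjusted p = 0.0123). With the lines compared as 2 groups, the calls of CALCOCO2, WDR45 and UVRAG in the 3-way analysis were lost, and that of ATG9A was kept. For GABARAPL1 the untreated lines differed by -0.86 (SE 0.124, adjusted p = 0.00233), with 8.99 to 9.36 against 9.87 to 10.23 and no overlap. Of the 16 arrays 6 of the cIAP2 line and 2 of the control line were on slide 1, and with the slide as a block 6 members were called in the 3-way analysis (12.5%, all genes 12.9%).

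**Figure D5:**
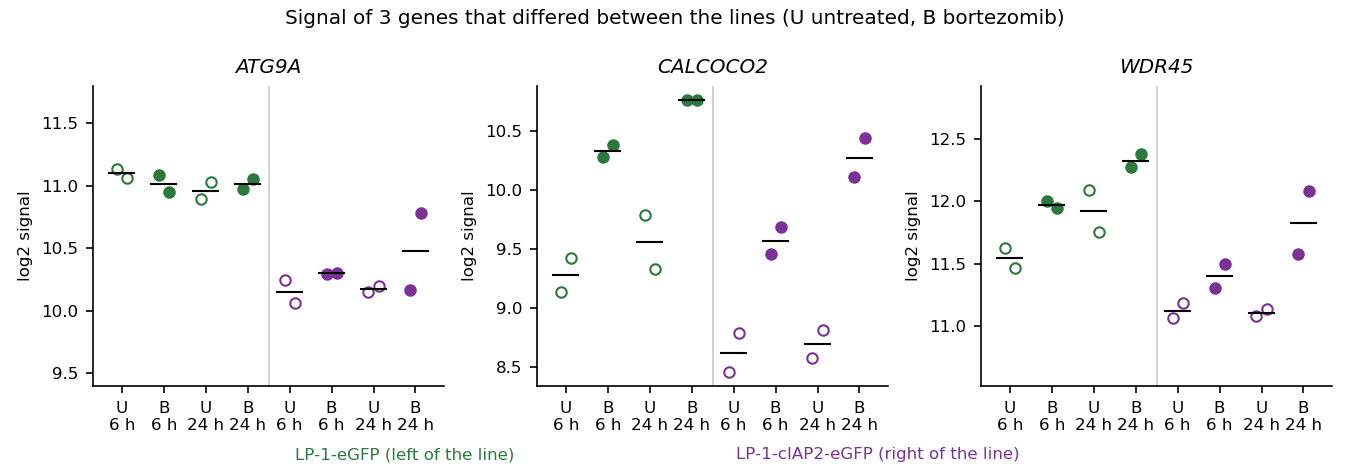
Quantile-normalized log2 signal of ATG9A, CALCOCO2 and WDR45 on each of the 16 arrays, open circles for untreated and filled circles for bortezomib, with a bar at the mean of the 2 replicates. For ATG9A every array of LP-1-cIAP2-eGFP (right) lies below every array of LP-1-eGFP (left), while CALCOCO2 and WDR45 overlap between the lines once treated arrays are included.

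Further genes of the pathway were counted from lists drawn up beside the 49, to be read against the background at 24 h of 13.3% higher and 15.1% lower in the control line and of 14.4% and 22.0% in the cIAP2 line, with medians over all genes of -0.03 and -0.16. Among 17 measured receptors of the endoplasmic reticulum and other cargo and their kinases, 6 rose in each line at 24 h, and 0 fell in the control line and 2 in the cIAP2 line, with medians of 0.34 and 0.28. CCPG1, an ER-phagy receptor, rose by 2.48 and 2.37, and TBK1, the kinase that acts on cargo receptors, by 1.54 and 1.34 at 24 h and by 1.27 and 1.23 at 6 h. RETREG1, also an ER-phagy receptor, fell by 1.63 in the cIAP2 line and was at -1.24 in the control line, not called (adjusted p = 0.0521). TEX264 fell by 1.52 in the cIAP2 line and was at -0.65 in the control line. Of 14 further autophagosome genes, 6 rose and 1 fell in each line, with medians of 0.61 and 0.55: C9orf72 rose by 1.85 and 2.40 and the lipid scramblase gene TMEM41B by 1.58 and 1.26, while ATG16L2, a relative of ATG16L1, fell by 2.19 and 2.60. Of 11 genes of fusion and tethering, 3 rose in each line, with medians of 0.33 and 0.15, among them PLEKHM1 (1.38 and 0.91) and the tethering subunit gene VPS18 (1.05 and 0.78), and SNAP29 fell in the cIAP2 line by 1.48 and was at -0.62 in the control line. With the dim array left out, the counts of rises and falls in the cIAP2 line were 7 and 3 of the 17 receptors, 7 and 1 of the 14 autophagosome genes and 4 and 1 of the 11 fusion genes. RETREG1 was then at -0.93, TEX264 at -1.04 and SNAP29 at -0.94, each still called.

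Of 23 genes of the TFEB family and of mTORC1 control, 9 rose in each line at 24 h, and 1 fell in the control line and 3 in the cIAP2 line, with medians of 0.57 and 0.12. SESN2, a stress-induced inhibitor of mTORC1, rose by 3.39 and 3.11 on the log2 scale at 6 h, and 4.36-fold and 8.57-fold at 24 h, TRIB3 rose by 2.13 and 2.18 at 24 h, and DEPTOR, a subunit that inhibits mTOR and is known for its high level in myeloma, fell by 2.42 and 1.14. Of 33 lysosomal hydrolase and proton pump genes, 13 rose and 3 fell in the control line, and 16 rose and 5 fell in the cIAP2 line, with medians of 0.41 and 0.51. GLA, the alpha-galactosidase gene, rose by 2.78 and 2.23 and PSAP, the saposin precursor, by 1.79 and 1.72, while NAGLU fell by 1.31 and 1.21 and SCARB2 by 0.63 and 1.03. With that array left out, 10 of the 23 genes of this first list rose and 2 fell in the cIAP2 line, and 16 of the 33 lysosomal genes rose and 4 fell there. All 8 genes chosen as a check of the treatment rose in both lines at both times. BAG3, a chaperone partner that works with SQSTM1 in selective autophagy, rose by 5.48 and 4.46 at 6 h and by 4.67 and 4.60 at 24 h, and the proteasome subunit gene PSMD12 rose by 1.88 and 1.86 at 24 h. HSPA1A and HSPA1B are near-identical copies that the probes may not tell apart, and they rose by 1.89 to 5.61 over these comparisons.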

How the data were processed

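RNA of LP-1-cIAP2-eGFP and control cells was measured on 16 arrays, 2 biological replicates for each of 8 conditions, assigned by their labels. The deposited intensity values had been made by the authors with Agilent Feature Extraction 10.7.3.1, which subtracts the background, and were not normalized between arrays. The authors' deposited log2 table, quantile normalized and centred per probe, served as an alternative. Outlier spots were left out, spots of a probe averaged on the log2 scale, and arrays quantile normalized with limma 3.58.1 (R 4.3.3). A probe was tested when both arrays of at least 1 condition had it well above background (33731 probes), with lmFit, eBayes and the Benjamini-Hochberg adjustment, with the difference in response as an interaction contrast. The code was tested on simulated data. Symbols came from RefSeq accessions (GRCh38.p14, 55.7% of gene probes).

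All 48 members with a probe were counted, and NBR1 was not. Named with their signals and differences were SQSTM1, the largest called change at 24 h in each class, further members by size up to 14, and the 3 smallest p-values between the lines, others being named with values for their class. An SE or adjusted p is not printed for each of these. The members and lists were chosen with earlier results of these data known. Scaling to the 75th percentile moved the median of all probes at 24 h in LP-1-cIAP2-eGFP from -0.16 to 0.21. Alternatives were other scalings, background corrections, filters, blocks, array weights, averaged probes and each array left out. One further marker gene is not reported here.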

Additional observations from a re-analysis of the deposited data

Results flagged for a closer look

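The responses to bortezomib at 24 h and at 6 h, averaged over both lines, differed by the test of the difference itself (limma, adjusted p under 0.05) for 13 members, or 27.1% of the 48, where 20.6% of all genes passed the same test. That order was not kept under scaling to the 75th percentile (members 12.5%, all genes 17.4%), and normexp gave 18.8% and 17.6%. The 24 h response was the larger by 1.47 for MAP1LC3B, 1.46 for ATG2A, 1.34 for GABARAPL1, 1.16 for TAX1BP1, 1.06 for WIPI1, 1.04 for SQSTM1, 0.95 for BNIP3L, 0.91 for TFEB, 0.79 for RB1CC1, 0.52 for AMBRA1, 0.52 for WIPI2 and 0.42 for TOLLIP, all as log2 differences. GABARAP had the lower response at 24 h, at -0.61. Of 25 alternatives, single arrays left out included, the difference passed under all 25 for MAP1LC3B and GABARAPL1. It passed under 24 for SQSTM1, TAX1BP1, GABARAP and ATG2A, under 23 for WIPI1 and TFEB and under 22 for BNIP3L, whose adjusted p reached 0.366. For the others the call was lost more often: AMBRA1 passed under 13, RB1CC1 under 8, WIPI2 under 6 and TOLLIP under 5, where TOLLIP was at -0.10 with the probes of a gene averaged. No group of arrays was large enough for a search for single outlying samples.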

How the results depend on the processing

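Of 518 values of named genes under alternatives that kept all arrays, 448 kept their call, 69 lost it and 1 turned its direction, and of 896 values with an array left out 818 kept it and 78 lost it. The value that turned was that of ATG5 at 24 h in LP-1-cIAP2-eGFP with the probes of a gene averaged, at -0.16, where the second ATG5 probe is -0.85. Members called at 6 h in LP-1-eGFP numbered 5, and 3 with scaling to the 75th percentile, 2 without a filter, 2 with the slide as a block and 13 with array weights (1 to 8 with an array left out). At 6 h in LP-1-cIAP2-eGFP 2 were called, and 7 with probes above background on all arrays or with array weights (1 to 5). At 24 h in LP-1-eGFP 20 were called, 12 with scaling to the 75th percentile and 10 when more than 2-fold was asked for (16 to 24). At 24 h in LP-1-cIAP2-eGFP 22 were called, 7 with array weights and 12 with more than 2-fold (14 to 30). Both arrays of that condition had the lowest weight, 0.121. The weights were equal for the replicates of each condition, so that they did not set the dim array apart from its partner. No member was called for a difference of the 24 h responses except with an array left out (0 to 15). Between the untreated lines 5 were called, 9 with probes above background on all arrays, 10 with array weights and 0 with more than 2-fold (2 to 9). In the 3-way analysis at an adjusted p under 0.05 11 were called, 7 without a filter, 6 with the slide as a block, 2 with the lines as 2 groups and 0 with more than 2-fold (7 to 24). For the 24 h against the 6 h response 13 were called, 6 with scaling to the 75th percentile and 8 with averaged probes (9 to 24). The filter for probes above background on all arrays tested fewer members. The 7 at 6 h in LP-1-cIAP2-eGFP were 19.4% of these (all genes 7.71%), and the 9 between the untreated lines were 25.0% (all genes 22.7%). For the 24 h against the 6 h response, scaling to the 75th percentile gave 12.5% of the members (all genes 17.4%) and normexp 18.8% (all genes 17.6%). The cause of these changes was not tested. The labels give a replicate number and do not say whether samples of the same number were handled together. Replicate differences of the 28 pairs of conditions correlated with r between -0.11 and 0.24, which does not settle it. The replicate number as a block gave 6 and 3 members at 6 h in LP-1-eGFP and LP-1-cIAP2-eGFP, 21 and 23 at 24 h, 7 between the untreated lines, 13 in the 3-way analysis and 16 for the 24 h against the 6 h response, and it ended no call of a named gene. The shares of all genes called with this block were, in the same order, 4.02%, 2.13%, 31.6%, 39.5%, 12.9%, 24.5% and 24.0%. Signal over background limits what can be said of MAP1LC3A and ULK2, which were above it on 11 and 12 arrays.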
